A study of Mus musculus musculus x M. m. domesticus and Mus musculus musculus x Mus musculus castaneus and Mus musculus domesticus with 42 samples.

Results

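The circadian clock genes described here are 10 of the 18193 genes named on the array: the activators Arntl, Clock and Npas2, the repressors Per1, Per2, Per3 and Cry1, the nuclear receptors Nr1d1 and Nr1d2, and the output gene Dbp. They were chosen by name, as every probe set whose platform symbol is one of these 10 symbols, which gave 24 of the 45037 probe sets on the array. All 24 carry a single symbol. Of the probe sets of a gene, the one with the highest average log2 signal over the 42 arrays stands for it, and the other 14 are described after the main results.

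The mammalian clock is a feedback loop of transcription. The protein of Arntl (also called Bmal1) pairs with CLOCK, or with the related NPAS2, and the pair activates genes that carry E-box elements, among them Per1, Per2, Per3, Cry1, Nr1d1, Nr1d2 and Dbp. The PER and CRY proteins then repress that pair, and the receptors encoded by Nr1d1 and Nr1d2 repress Arntl, Clock and Npas2. In liver the transcripts of Dbp and Arntl are known to peak at nearly opposite times of day, with a large amplitude for Dbp, while whole brain mixes many local clocks and most testis transcripts of clock genes are known to cycle little or not at all.

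The study measured transcripts in brain, liver and testis of 14 male house mice on 42 arrays, 1 per tissue and male, to ask which transcripts differ between subspecies and how F1 hybrids express them. There were 2 males of each of 7 genotypes, described in the labels as separate males. The 4 F1 genotypes, written with the mother first, were musculus x domesticus (53 days old), domesticus x musculus (50 days), musculus x castaneus (53 days) and castaneus x musculus (54 days). The 3 parental subspecies were Mus musculus domesticus (45 days), M. m. castaneus (47 days) and M. m. musculus (47 days). No treatment is given in the labels, and neither the source colony or strain of each subspecies nor the time of day at which tissues were taken is given in the sources used here. Differences between genotypes sampled at unlike ages, and between males taken at unlike times of day, therefore cannot be told apart from genotype differences.

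The values are MAS5 signals on a linear scale, scaled before deposit to a common trimmed mean of 496.87 to 498.59 per array. The 2 arrays of a genotype correlated at 0.958 to 0.981 within a tissue, and none were identical. The tissue labels fit their markers: the summed signal of the brain list (5 genes) was 39390 to 53790 in brain and at most 4418 elsewhere, that of the liver list (4 genes on the array) was 88180 to 136100 in liver and at most 17650 elsewhere, and that of the testis list (3 genes) was 32990 to 50390 in testis and at most 1219 elsewhere. The liver of musculus x castaneus F1 male 2 stood apart in exocrine pancreas transcripts (summed signal 49400, against a median of 3646 over the 14 livers). The brain of domesticus male 1 had the lowest summed signal of immediate early genes (5646, against a median of 17610).

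The liver was where the clock genes differed most. Dbp, which encodes a PAR-bZIP transcription factor driven by the core clock, spanned a 72.7-fold range over the 14 livers, Arntl 15-fold and Nr1d1 13.8-fold, on the log2(signal + 31) scale used for every fold and log2 value here. Nr1d2, Per2, Per3, Cry1 and Clock spanned between 3.39-fold (Clock) and 8.41-fold (Per3). Per1 (11 to 897) and Npas2 (5 to 349) had signals below the offset of 31 in 4 of 14 livers each, so no fold is given for their range. In brain the same 10 probe sets spanned only 1.31-fold (Cry1) to 2.95-fold (Dbp). A large part of the liver range lay between the 2 males of a genotype: the median within-genotype SD of the 10 genes was 0.616 log2 units, against 0.293 over all 27022 probe sets tested in liver, and all 10 lay above the median of all probe sets. In brain the median was 0.237 for the clock genes and 0.218 for all probe sets, and in testis it was 0.225 and 0.22.

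The activators were lowest in the livers of domesticus male 1 and both musculus x domesticus F1 males. The liver signal of Arntl was 176 and 176 in musculus x domesticus F1 males, 1348 and 1629 in domesticus x musculus F1, 80 and 705 in domesticus, 984 and 454 in musculus x castaneus F1, 1041 and 493 in castaneus x musculus F1, 1040 and 527 in castaneus, and 583 and 1229 in musculus. The lowest liver was that of domesticus male 1, and the domesticus x musculus F1 held both of the highest. Npas2, whose protein can take the place of CLOCK, varied like Arntl, with 5 and 11 in musculus x domesticus F1 livers against 349 and 288 in domesticus x musculus F1, and with 11 in domesticus male 1 against 116 in domesticus male 2. The 5 and both values of 11 are below the offset and have no order among themselves. Clock, which encodes the usual partner of BMAL1, had 253 and 402 in musculus x domesticus F1 livers and 887 and 698 in domesticus x musculus F1 livers, and ran from 240 in domesticus male 1 to 887.

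Dbp mirrored them. Its liver signal was 12569 and 9776 in musculus x domesticus F1, 159 and 161 in domesticus x musculus F1, 13786 and 2125 in domesticus, 2099 and 2063 in musculus x castaneus F1, 626 and 3772 in castaneus x musculus F1, 467 and 1359 in castaneus, and 4042 and 292 in musculus. The livers lowest in Arntl were the highest in Dbp, and the 2 livers of domesticus x musculus F1 were the lowest of all. Males of one genotype differed by a log2 value of 2.68 in domesticus and 3.66 in musculus.

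Nr1d2, the REV-ERB beta gene, varied like Dbp: 6764 and 5841 in musculus x domesticus F1 livers, 1020 and 1108 in domesticus x musculus F1, 7459 and 2316 in domesticus, 3152 and 3046 in musculus x castaneus F1, 2272 and 3201 in castaneus x musculus F1, 2449 and 2874 in castaneus, and 5084 and 2320 in musculus. Domesticus male 1 and both musculus x domesticus F1 males were again at the top, followed by musculus male 1. Nr1d1, the REV-ERB alpha gene, was flatter, between 501 and 1323 in 12 of the 14 livers, and 67 and 365 in the domesticus x musculus F1.

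Of the repressors, Per3 had 687 and 753 in musculus x domesticus F1 livers against 84 and 181 in domesticus x musculus F1 livers, and 936 and 385 in domesticus against 390 and 185 in musculus. Per1 was near the low end of the array in several livers: 705 and 897 in musculus x domesticus F1 and 136 and 11 in domesticus x musculus F1, with 512 and 194 in domesticus and 289 and 19 in musculus. Cry1, which encodes a cryptochrome repressor, went with the activators in the domesticus cross, at 518 and 240 in musculus x domesticus F1 livers and 796 and 684 in domesticus x musculus F1 livers. Its lowest livers were both from castaneus (217 and 196).

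**Figure D1:**
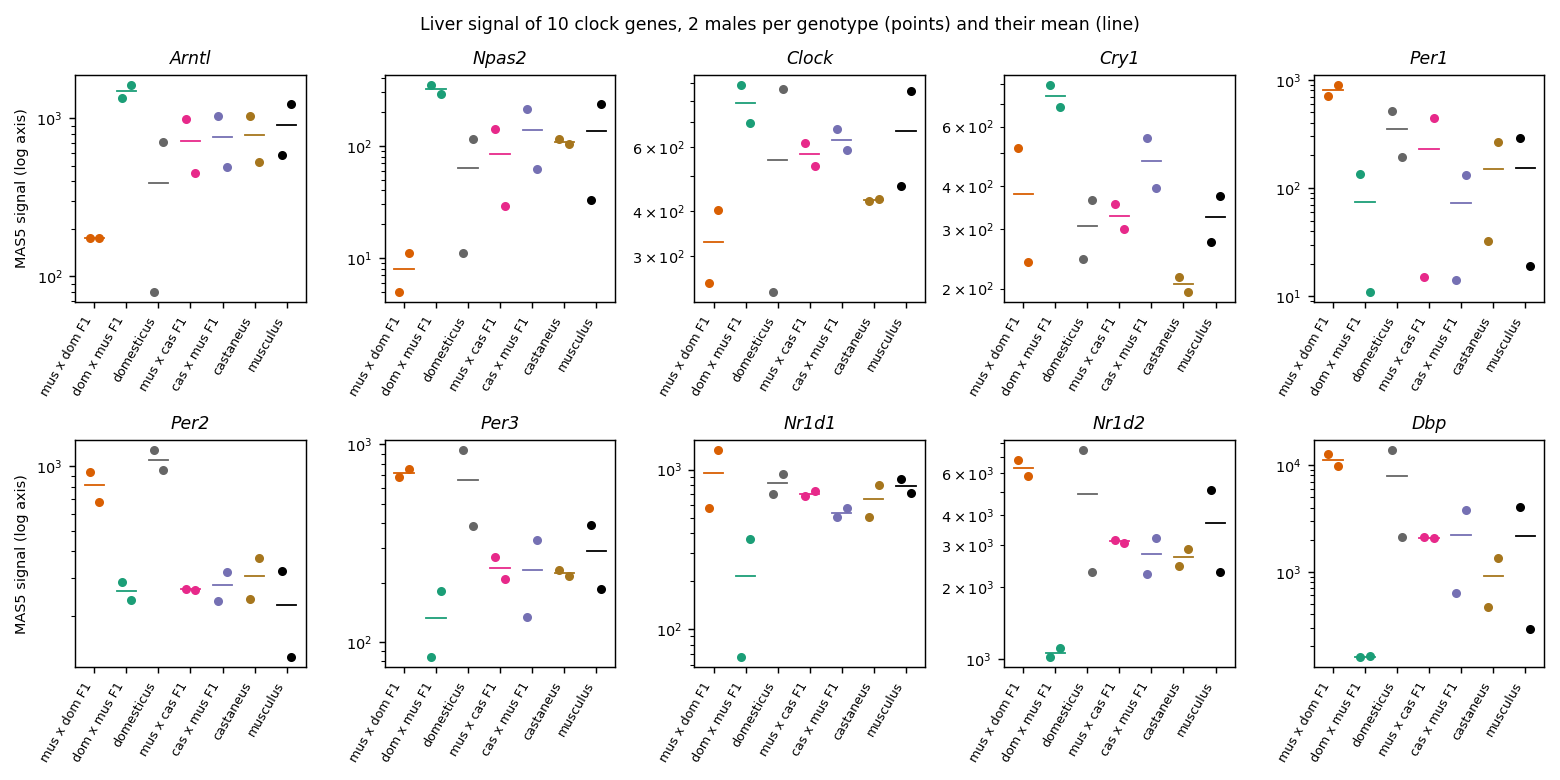
Liver MAS5 signal (vertical log axis, separate for each gene) of the 10 clock genes in 7 genotypes; each point is 1 male and the line is the mean of the 2 males. The musculus x domesticus F1 and domesticus x musculus F1 lie apart for all 10 genes, in one direction for Arntl, Npas2, Clock and Cry1 and in the other for the Per genes, Nr1d1, Nr1d2 and Dbp, and the 2 domesticus or musculus males often lie far apart.

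The 2 reciprocal F1 of the domesticus cross did not overlap in liver. There both males of one F1 lay outside the range of the other for 10 of 10 genes, where 43.3% of all probe sets tested did so. Npas2 passed the filter on low values narrowly, through its high signals in the domesticus x musculus F1. Its mean log2 liver signal was 6.87, and a probe set at 6.71 was left out. Its place in this count is therefore no separate support. The musculus x domesticus F1 was higher for the 3 Per genes, Nr1d1, Nr1d2 and Dbp and lower for Arntl, Npas2, Clock and Cry1. Dbp differed by 5.86 ± 1.08 log2 units (SE, 58.2-fold), Arntl by -2.87 ± 0.698, Nr1d2 by 2.53 ± 0.439, Per3 by 2.26 ± 0.468, Nr1d1 by 2.20 ± 0.518, Per2 by 1.52 ± 0.346, Clock by -1.22 ± 0.442 and Cry1 by -1.0 ± 0.324. For Per1 (3.30 ± 1.16) and Npas2 (-3.16 ± 0.745) the size depends on the offset of 31, since the lower F1 holds signals below it. The F1 were not the extremes for every gene: domesticus male 1 had the highest Dbp, Nr1d2, Per2 and Per3 and the lowest Arntl and Clock, and musculus male 2 had the lowest Per2.

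With limma none of these 10 differences passed an adjusted p of 0.05, a level that 0.0888% of all probe sets reached in that comparison, and the lowest adjusted p were 0.0574 for Nr1d2 and 0.0623 for Dbp. At an unadjusted p under 0.05, 10 of 10 passed, against 9.62% of all probe sets. The spread in that fit was estimated from all 14 livers, including the unlike males of domesticus and musculus. Leaving out 1 male of domesticus or of musculus, or domesticus x musculus F1 male 2, brought some of these genes past an adjusted p of 0.05. The share of all probe sets called in those refits was not counted, so this is no result about the clock genes. In a fit on the 8 F1 livers alone, chosen after the data were seen, limma called 6 of 10 genes, against 0.574% of all probe sets: Dbp (adjusted p = 0.00614), Nr1d2 (0.00142), Arntl (0.0154), Per2 (0.0357), Per3 (0.045) and Npas2 (0.0497). Npas2 entered the counts of 10 and of 6 through the F1 in which it was high. Its signals in the other F1 (5 and 11) were below the offset. Cross direction, age and any difference in collection time cannot be told apart here. Between the reciprocal F1 of the castaneus cross limma called 0 of 10 genes in liver (0.037% of all probe sets), 0 of 10 passed an unadjusted p under 0.05 (3.51% of all), and Dbp differed by 0.42 ± 1.08 log2 units (SE).

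**Figure D2:**
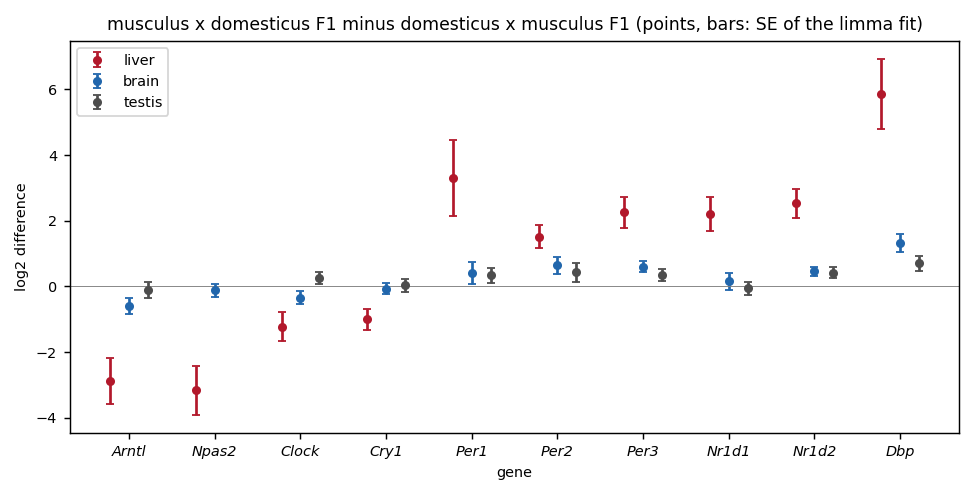
Log2 difference, musculus x domesticus F1 minus domesticus x musculus F1 (vertical axis), of the clock genes in liver, brain and testis, with the SE of the limma fit over the 14 arrays of a tissue. Among genes with liver signals above the offset, differences run from -2.87 (Arntl) to 5.86 (Dbp) in liver and those of brain from -0.60 (Arntl) to 1.32 (Dbp). The liver sizes of Per1 and Npas2 depend on the offset, and Npas2 was not tested in testis.

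One liver difference between the subspecies was called. Per2, which encodes a repressor that also binds nuclear receptors, had 1190 and 957 in domesticus livers and 322 and 128 in musculus livers, and the 2 groups did not overlap. The difference was 2.21 ± 0.346 log2 units (4.64-fold, limma adjusted p = 0.00175), and no other of the 10 genes was called between these parents, where 6.17% of all probe sets were called. The call held without any one of the 14 livers, and without domesticus male 2 Arntl was called too (adjusted p = 0.0111). Domesticus male 2 had high Per2 (957) with Dbp at 2125, whereas musculus male 1 had Per2 at 322 with Dbp at 4042, so Per2 did not follow Dbp between these 2 males. Over all 14 livers Per2 and Dbp correlated at r = 0.76, and at 0.89 for deviations from genotype means. For Per2 the musculus x domesticus F1 had 944 and 684, and the domesticus x musculus F1 288 and 236. A separate Per2 probe set (1457350_at) differed in the same direction, by 1.44 ± 0.41 log2 units in liver (limma adjusted p = 0.0596) and by 1.15 ± 0.257 in brain (adjusted p = 0.0214), while the main probe set differed by 0.45 ± 0.263 in brain (adjusted p = 0.452).

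Between castaneus and musculus livers, limma called 0 of 10 clock genes (6.55% of all probe sets) and 0 of 10 passed an unadjusted p under 0.05 (19.6% of all). Over any of the 7 genotypes the limma F test called 4 of 10 genes in liver (8.69% of all probe sets): Per2 (adjusted p = 0.00439), Nr1d2 (0.0405), Dbp (0.0421) and Per3 (0.046). The count was 1 without domesticus x musculus F1 male 1, castaneus male 1 or 2, or musculus x castaneus F1 male 1 or 2. It was 2 without musculus x domesticus F1 male 1 or 2 or without domesticus x musculus F1 male 2. For the F1 mean minus the midparent in liver, 0 of 10 genes were called in the domesticus cross (0.178% of all probe sets) and 0 of 10 in the castaneus cross (0.241%). At an unadjusted p under 0.05, 2 genes passed in the domesticus cross (5.5% of all) and 1 in the castaneus cross (7.81%). The mean of the 2 reciprocal F1 joins livers of low and of high Dbp signal in the domesticus cross.

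Within liver the genes moved in 2 opposing blocs. Over the 14 livers, log2 Dbp correlated with Nr1d2 at r = 0.94 (rho 0.91), Per3 at 0.91 (0.94), Per1 at 0.77 (0.73) and Per2 at 0.76 (0.78), and with Npas2 at -0.94 (-0.88), Arntl at -0.91 (-0.90) and Clock at -0.75 (-0.70). Arntl and Npas2 correlated with each other at 0.92 (rho 0.96). With the 2 livers farthest from the median Dbp left out, these values with Dbp were 0.82 to 0.91 and -0.90 to -0.70, and for deviations from genotype means they were 0.68 to 0.90 in the first bloc and -0.86 to -0.75 in the second, so the opposition was also present between the 2 males of a genotype. Nr1d1 stood partly apart, at 0.62 (rho 0.55) over all 14 livers, 0.38 without those 2 livers and 0.08 for deviations. Cry1 was at -0.48 (rho -0.38), and at -0.05 without those 2 livers. The points of these correlations share their arrays and scaling, and all are descriptions over 14 livers.

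**Figure D3:**
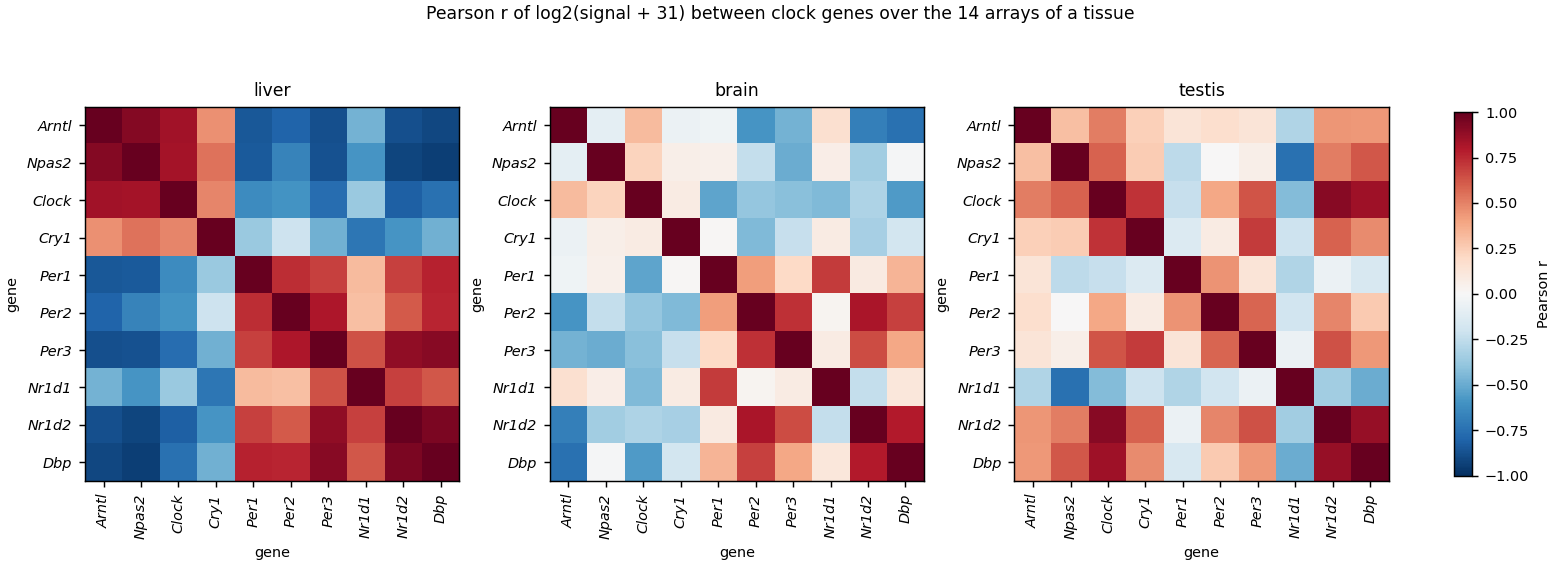
Pearson r (colour) of log2(signal + 31) between the clock genes over the 14 arrays of liver, brain and testis. In liver, Arntl, Npas2 and Clock are negative with the Per genes, Nr1d2 and Dbp, with Dbp against Npas2 at -0.94; in brain the opposition is weaker, and in testis Dbp and Clock are positive at 0.85.

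The brain showed smaller differences between the males. Dbp had 6029 and 4344 in musculus x domesticus F1 brains, 2022 and 2031 in domesticus x musculus F1, 5611 and 3152 in domesticus, 3357 and 4087 in musculus x castaneus F1, 3708 and 3668 in castaneus x musculus F1, 3557 and 5326 in castaneus, and 3213 and 2268 in musculus. The domesticus x musculus F1 brains were the lowest, as in liver, and domesticus male 1 and musculus x domesticus F1 male 1 were the highest. Arntl had 583 and 640 in musculus x domesticus F1 brains and 805 and 1109 in domesticus x musculus F1 brains, with its lowest value, 491, in domesticus male 1. Between these reciprocal F1, Dbp differed by 1.32 ± 0.277 log2 units (2.50-fold), Per2 by 0.64 ± 0.263, Per3 by 0.60 ± 0.161, Nr1d2 by 0.46 ± 0.139 and Arntl by -0.60 ± 0.236. The males did not overlap for 7 of 10 genes (28.7% of all probe sets). Limma called none of the 10 (0.0222% of all probe sets), and 5 passed an unadjusted p under 0.05 (4.12% of all), namely these 5 genes, each in the direction seen in liver.

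Per3 was the one clock gene called by the limma F test over genotypes in brain (adjusted p = 0.044, 6.15% of all probe sets called), and leaving out any single brain array ended that call, with adjusted p of 0.056 to 0.122. Without domesticus male 2 the test called Dbp in its place (adjusted p = 0.0376). Per3 had 781 and 750 in musculus x domesticus F1 brains, 453 and 541 in domesticus x musculus F1, 714 and 694 in domesticus, 401 and 484 in musculus x castaneus F1, 406 and 470 in castaneus x musculus F1, 553 and 463 in castaneus, and 537 and 523 in musculus. The 4 brains of domesticus and of the F1 with a domesticus father were above the other 10. Between domesticus and musculus, limma called 0 of 10 (5.75% of all probe sets) and 3 passed an unadjusted p under 0.05 (17.1%). Between castaneus and musculus it called 0 of 10 (6.07%), with 1 at an unadjusted p under 0.05 (18.3%). The F1 minus midparent difference was called for 0 of 10 in each cross (0.137% of all probe sets in both), and 0 passed an unadjusted p under 0.05 in the domesticus (4.19% of all) or castaneus cross (6.15%). The reciprocal castaneus difference had 0 of 10 called (0.0111%) and 0 at an unadjusted p under 0.05 (3.95%). Within brain, Dbp correlated with Nr1d2 at r = 0.79 (rho 0.67), Per2 at 0.68 (0.55), Arntl at -0.75 (-0.71) and Clock at -0.57 (-0.68), but with Npas2 at -0.01 (-0.07) and Nr1d1 at 0.11 (0.03). In these bulk tissues a lower signal cannot be told apart from fewer cells of a type that express the gene.

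The state of the clock was compared between tissues of one male as log2 Dbp minus log2 Arntl, centred on the median of the tissue. In liver it was 4.49 and 4.13 in musculus x domesticus F1, -4.29 and -4.55 in domesticus x musculus F1, 5.53 and 0.12 in domesticus, -0.36 and 0.68 in musculus x castaneus F1, -2.14 and 1.43 in castaneus x musculus F1, -2.54 and -0.12 in castaneus, and 1.30 and -3.40 in musculus. In brain the same males had 1.16 and 0.56 in musculus x domesticus F1, -0.85 and -1.29 in domesticus x musculus F1, 1.29 and -0.26 in domesticus, -0.07 and 0.08 in musculus x castaneus F1, 0.16 and -0.27 in castaneus x musculus F1, 0.07 and 0.77 in castaneus, and -0.40 and -0.74 in musculus. The males at both ends in liver were also at both ends in brain, over a narrower range. Over the 14 males the liver and brain values correlated at r = 0.81 (rho 0.68), at 0.69 without the 2 males farthest from the median in brain, and at 0.65 for deviations from genotype means. For such deviations of single probe sets, the upper quartile over all probe sets tested in both tissues was 0.63. In 6 of 7 genotypes the male with the higher liver value also had the higher brain value, the castaneus x musculus F1 being the exception. The 2 tissues share the male and its genotype and age, and the labels tie them by genotype and replicate number. Whether they were taken at the same time of day is not given.

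**Figure D4:**
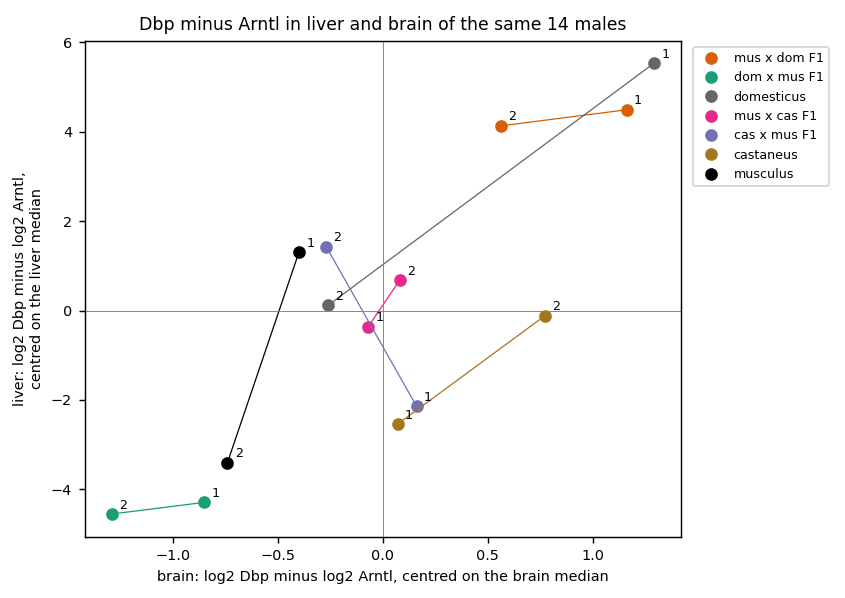
Log2 Dbp minus log2 Arntl in liver (vertical) against brain (horizontal) of the same 14 males, each centred on the tissue median; numbers are the replicate and lines join the 2 males of a genotype. Musculus x domesticus F1 and domesticus male 1 lie at the upper right, domesticus x musculus F1 at the lower left, and the pooled r is 0.81.

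Gene by gene, the liver and brain levels of one male correlated at 0.81 for Dbp (rho 0.69), 0.80 for Per2 (0.83) and Per3 (0.68), 0.74 for Arntl (0.50), 0.73 for Nr1d2 (0.56), 0.61 for Clock (0.65), 0.54 for Nr1d1 (0.59) and 0.47 for Per1 (0.45). The median over all 22347 probe sets tested in both tissues was 0.35, and 94.8% of them lay below Dbp, 78.2% below Clock, 71.3% below Nr1d1 and 63.1% below Per1. Npas2 (0.06, rho 0.14) and Cry1 (-0.09, rho -0.17) had no such relation between liver and brain. For deviations from genotype means the median over all probe sets was 0.36, and the clock genes ranged from -0.37 (Npas2) to 0.74 (Dbp). The share of all probe sets below ran from 6.65% (Npas2) to 84.7% (Dbp). It was 57.9% for Arntl, 57.6% for Per3 and 51.3% for Clock, so these were near the middle of all probe sets. The Dbp minus Arntl value correlated at 0.56 (rho 0.52) between testis and brain and at 0.53 (rho 0.53) between testis and liver, with the same sign in 4 and 5 of 7 genotypes. Gene by gene, testis and brain ranged from -0.27 (Nr1d1) to 0.55 (Dbp and Per1), with a median of 0.31 over all probe sets. Testis and liver ranged from -0.27 (Per2) to 0.47 (Dbp), with a median of 0.26 over all probe sets.

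By median signal the order was brain, liver, testis for Dbp, Arntl, Npas2, Nr1d2, Per2 and Per3. Cry1, Per1, Nr1d1 and Clock departed from that order. Cry1 was highest in testis, with 560 to 1765 in 14 testes, above every brain (at most 497), and its brain and liver levels overlapped. Npas2 was higher in brain than in liver in 14 of 14 males (medians 480.5 and 109.0), and its testis median of 32.5 was near the offset added to the signals. Per1 was lowest in liver (median 165.0), below brain (972.0) in 14 of 14 males, and brain and testis (1032.5) overlapped. Nr1d2 was lower in testis (median 785.0) than in liver (2960.0) in 14 of 14 males, and Nr1d1 was lower in testis (363.0) than in brain (517.0) in 14 of 14. The brain and liver levels of Dbp, Arntl, Nr1d1, Nr1d2, Per2 and Per3 overlapped.

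In testis Dbp lay between 373 and 1287, and it was not opposed to Arntl or Clock. Dbp and Clock correlated at 0.85 (rho 0.71) and Dbp and Nr1d2 at 0.87 (0.75) over 14 testes, in the same direction, and Dbp and Arntl at 0.43 (0.22). Without the 2 testes farthest from the median Dbp, those of the musculus x castaneus F1, the values were 0.57, 0.62 and -0.08. Dbp had 1114 and 1287 in those 2 testes, against 524 and 705 in castaneus x musculus F1. Nr1d2 had 1355 and 1501 in musculus x castaneus F1, against 833 and 790 in castaneus x musculus F1, and Clock had 1102 and 1049 against 580 and 644. For all 3 genes these F1 did not overlap, which also held for Nr1d1, Per2, Per3 and Cry1, so it does not set these 3 apart. The share of all probe sets without overlap was not counted for this cross. Between these reciprocal F1 limma called 3 of 9 genes (28.4% of all probe sets): Dbp by 0.94 ± 0.219 log2 units (adjusted p = 0.00682), Nr1d2 by 0.79 ± 0.163 (0.00352) and Clock by 0.78 ± 0.187 (0.00785). Without castaneus x musculus F1 male 1, 1 of them was called, and without musculus x castaneus F1 male 2 Dbp had an adjusted p of 0.0593. The share of members called was near that of all probe sets. The musculus x castaneus F1 testes also held the highest summed signal of the 3 measured Leydig cell markers (Cyp17a1, Hsd3b1 and Star), 13291 and 14261, against 7350 and 5872 in castaneus x musculus F1 and 4395 to 10428 in the other 10 testes. No Leydig marker was near 0 there. The summed signal of 4 Sertoli cell markers was also highest in a musculus x castaneus F1 testis (12950 in male 1, against a median of 10210). The high sum was thus not particular to Leydig cells, and the part of either cell type in the result was not tested.

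The mean of both castaneus-cross F1 differed from the midparent in testis for 4 of 9 genes by limma (17.4% of all probe sets): Clock by 0.52 ± 0.132 (adjusted p = 0.0157), Dbp by 0.53 ± 0.155 (0.0306), Nr1d2 by 0.37 ± 0.115 (0.0404) and Per1 by -0.50 ± 0.158 (0.0457). For Clock, Dbp and Nr1d2 that mean joins unlike F1: the musculus x castaneus F1 were above every parent, and the castaneus x musculus F1 lay near the parents. Castaneus testes had 701 and 681 for Dbp, 906 and 736 for Nr1d2 and 579 and 566 for Clock. Musculus testes had 604 and 394, 890 and 780, and 547 and 532. Per1, the one of the 4 that was lower in the F1, had 687 and 1138 in musculus x castaneus F1 testes, 1049 and 821 in castaneus x musculus F1, 1343 and 1393 in castaneus and 1016 and 1464 in musculus. The count was 0 without castaneus x musculus F1 male 2, 1 without musculus male 2 or castaneus male 2, and 2 without castaneus male 1 or musculus x castaneus F1 male 1 or 2. In the domesticus cross limma called 0 of 9 genes for the F1 minus midparent difference (0.414% of all probe sets), with 1 at an unadjusted p under 0.05 (5.48% of all). It called 0 of 9 for the reciprocal difference (0.204%), with 2 at an unadjusted p under 0.05 (4.88%). In testis the males of those 2 F1 did not overlap for 6 of 9 genes (30% of all probe sets).

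Between subspecies, 3 testis differences were called. Nr1d1 had 176 and 141 in castaneus testes and 444 and 462 in musculus testes, with the F1 in between, at 268 and 257 in musculus x castaneus F1 and 302 and 364 in castaneus x musculus F1. It was lower in castaneus by -1.36 ± 0.196 log2 units (2.56-fold, limma adjusted p = 0.000348), and no other of the 9 genes was called between these parents (13.5% of all probe sets). This call held without any one of the 14 testes. The same probe set had 634 and 601 in castaneus brains against 693 and 530 in musculus brains, and 501 and 805 in castaneus livers against 876 and 709 in musculus livers.

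Per3 and Cry1 were the 2 of 9 genes called between domesticus and musculus testes (12.8% of all probe sets). Per3 had 132 and 144 in domesticus and 300 and 270 in musculus testes, a difference of -0.90 ± 0.187 (limma adjusted p = 0.0054). Cry1 had 560 and 790 in domesticus and 1433 and 1056 in musculus testes, a difference of -0.86 ± 0.198 (adjusted p = 0.0109). The count was 1, with Cry1 lost, without domesticus male 1 and 0 without musculus male 1. The same Per3 probe set had 714 and 694 in domesticus brains against 537 and 523 in musculus brains, and 936 and 385 in domesticus livers against 390 and 185 in musculus livers. The testis F test over genotypes called 6 of 9 genes, Nr1d1 (adjusted p = 0.00109), Nr1d2 (0.00132), Clock (0.00194), Dbp (0.00281), Cry1 (0.00463) and Per3 (0.0148), where 40.2% of all probe sets were called.

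**Figure D5:**
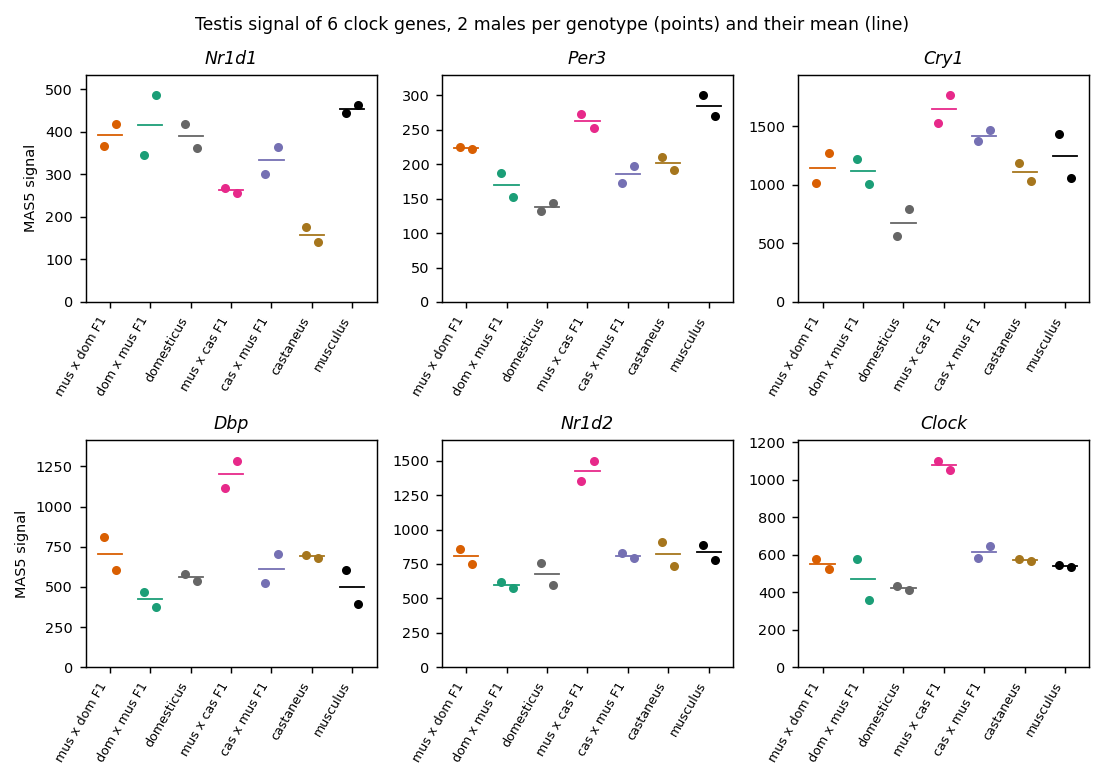
Testis MAS5 signal (vertical axis from 0) of the 6 clock genes called by the genotype F test in testis; points are males and lines the mean of 2. Nr1d1 is lowest in castaneus (176 and 141), Per3 and Cry1 are lowest in domesticus, and Dbp, Nr1d2 and Clock are highest in the musculus x castaneus F1.

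Genotype differences of most clock genes passed a test for dependence on the tissue, which has limits. The fit used 1 spread per probe set for all tissues. The within-genotype SD of Dbp was 1.45 log2 units in liver, 0.334 in brain and 0.242 in testis. Differences between the 2 males of a genotype in liver can therefore enter these calls. In a limma fit over all 42 arrays, with the male as a random block, the interaction of tissue and genotype passed for 8 of the 9 genes tested in all tissues, against 37.9% of 20178 probe sets, and Per1 did not (adjusted p = 0.174). Npas2 was not tested there because it was below the filter in testis. Arntl passed (adjusted p = 0.0381), though the genotype F test did not call it in liver (0.121). Other probe sets of Dbp (0.00216), Clock (0.000171) and Per2 (0.0273) passed the interaction test. Those of Arntl (0.524), Clock (0.119 and 0.0647) and Per3 (0.211, 0.0562 and 0.858) did not.

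The 14 other probe sets followed the main ones unevenly. The second Dbp probe set (1418174_at) correlated with the first at 0.98 in liver, 0.85 in brain and 0.87 in testis, and differed between the reciprocal F1 of the domesticus cross by 5.60 ± 0.991 log2 units in liver (limma adjusted p = 0.0616). The second Arntl probe set (1457740_at) correlated with the first at -0.36 in liver and 0.36 in brain, so the liver range of Arntl rests on 1 probe set. So does that of Npas2, whose second probe set (median liver signal 22) correlated with the first at 0.08, and Nr1d1, Per1 and Cry1 have 1 probe set each. The second Nr1d2 probe set (liver median 68) correlated with the first at 0.73 in liver. The 2 other Per2 probe sets correlated with the main one at 0.64 and 0.80 in liver. The 3 other Clock probe sets correlated with the main one at 0.48 to 0.83 in liver, and the 5 other Per3 probe sets at 0.48 to 0.72. Probe set 1441445_at of Per3 was lower in domesticus than musculus brains by -0.89 log2 units (adjusted p = 0.0429), whereas the main one differed by 0.39. The part that mismatches between subspecies sequence and array probes have in such differences was not tested.

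The genes whose liver level over the 14 livers was most like that of Dbp were Tef (r = 0.92), which encodes another PAR-bZIP factor, Trak2 (0.90), Gne (0.89), Cdip1 (0.88) and Golgb1 (0.88). The most opposite were Ypel2 (-0.96), Chka (-0.95), which encodes choline kinase alpha, Denn2b (-0.93), Avpr1a (-0.91), a vasopressin receptor, and Pex13 (-0.90). Each value is of 1 probe set, and other probe sets of these genes often did not track Dbp: the r was 0.42 for a second one of Tef, -0.18 for Trak2, 0.33 for Gne and -0.22 for Pex13, against -0.92 for Ypel2. At an absolute r of 0.8 or more, 107 of 27021 probe sets (0.396%) tracked Dbp in liver and 53 (0.196%) in brain, against 2138 (7.91%) in testis. In brain the closest genes were Slc2a1 (0.90), Naa50, Ppp1r9a, Tnfaip6 and Prkca and the most opposite Slc38a10 (-0.90), Mmab, Chmp3, Ankrd10 and Gtf2f1. In testis they were Rbpj (0.97), Tmem65, Abat, Anp32e and Lonrf3, all highest in the musculus x castaneus F1, and Mtch2 (-0.95), Tmsb10, Ubqln5, Necab2 and Gtf2e2. These too are of 1 probe set each, and other probe sets often did not track Dbp. The r was -0.12 for a second one of Prkca in brain and 0.19 for Abat in testis, against 0.79 for Lonrf3.

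Of the further clock genes, 16 of 18 had a probe set, and the F test over genotypes called 1 of 12 tested in liver (Rora, with 8.69% of all probe sets called), 1 of 15 in brain (Bhlhe41, 6.15%) and 3 of 13 in testis (Rora, Csnk1d and Timeless, 40.2%). In liver Nfil3, a repressor of PAR-bZIP targets, was opposed to Dbp at r = -0.85 (rho -0.93) over signals of 239 to 2008, and was named after its value was seen. Among 9 clock output genes tested in liver the F test called 1 (8.69% of all probe sets), Usp2, whose signal ran from 152 to 4437 and correlated with Dbp at 0.78. Glucocorticoid signalling is known to act on peripheral clocks, and the summed signal of 8 glucocorticoid-responsive genes was highest in the 3 livers with the highest Dbp: 66783 and 43055 in musculus x domesticus F1 and 54140 in domesticus male 1, against 18552 and 14638 in domesticus x musculus F1 and 8596 to 23633 in the other 9 livers. Of these 8 genes, Fkbp5 was called between the reciprocal F1 of the domesticus cross, 2.21 log2 units higher in musculus x domesticus F1 (limma adjusted p = 0.048, with 0.0888% of all probe sets called). Their part in the clock gene differences was not tested.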

How the data were processed

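Brain, liver and testis RNA of 14 males was hybridised to 42 1-colour Affymetrix arrays. Each deposited column holds one array's intensity per probe set, unlogged, and the submitters' processing notes name MAS5; neither its version nor detection calls were given. The platform annotation gave 1 symbol to 34945 of 45037 probe sets, several to 932 and none to 9160.

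Signals were analysed as log2(signal + 31), 31 being the 20th percentile of all values. Probe sets whose mean log2 value reached the 40th percentile of a tissue (27022) were tested with limma 3.58.1 in R 4.3.3 (lmFit, eBayes with trend) over its 14 arrays, with 7 residual degrees of freedom, Benjamini-Hochberg adjustment per contrast in each tissue, and calls at an adjusted p under 0.05. Contrasts were domesticus or castaneus minus musculus, the mean of both F1 minus the mean of both parents, and the F1 with a musculus mother minus that with a musculus father. The interaction of tissue and genotype was fitted over 42 arrays with the male as a block (correlation 0.293). Correlations and figures used Python 3.11.15. In simulated data the domesticus minus musculus fit in liver recovered 69.1% of probe sets changed by a log2 value of 2 and 18.3% of those changed by 1. Those probe sets were drawn at random from all tested. The clock genes had a larger within-genotype SD in liver (median 0.616, against 0.293 for all), so these shares need not hold for them.

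The members and gene lists were chosen with earlier results of these data known. Every clock gene is named; the genes most like Dbp are the 5 highest and 5 lowest in r per tissue. Deviations of same-numbered males of different genotypes correlated over 0.1 in 13 of 21 pairs in brain (-0.473 to 0.527), 9 in liver and 10 in testis, not in every pair, so the numbers were not taken to pair genotypes. Those of tissues of 1 male did so in 21 of 21. Alternatives were another offset, no filter, quantile normalization, a replicate block, no block for the male, a linear midparent, all probe sets of the clock genes, leaving out each array and, chosen after the data were seen, the F1 arrays alone. The number of arrays limits the precision. The planned promoter motif search was not run.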

Additional observations from a re-analysis of the deposited data

Results flagged for a closer look

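For 8 clock genes the interaction test of limma over 42 arrays was passed, in a fit with 1 spread shared by all tissues. The adjusted p was 0.000338 for Per2, 0.000533 for Nr1d2, 0.000834 for Cry1, 0.000883 for Per3, 0.00103 for Nr1d1, 0.00261 for Dbp, 0.0381 for Arntl and 0.0476 for Clock. Per2 was 4.64-fold higher in domesticus than in musculus livers, with differences of 0.45 in brain and -0.54 in testis on the log2 scale. Cry1 was lower in domesticus testes by -0.86, with 0.13 in brain and -0.09 in liver. Per3 differed between domesticus and musculus by -0.90 in testis, 0.39 in brain and 1.07 in liver. Nr1d1 was lower in castaneus testes by -1.36, with 0.02 in brain and -0.30 in liver. Between the reciprocal F1 of the domesticus cross, Dbp differed by 5.86 in liver, 1.32 in brain and 0.70 in testis, and Nr1d2 by 2.53 in liver, 0.46 in brain and 0.42 in testis. Arntl differed there by -2.87 in liver, -0.60 in brain and -0.11 in testis, and Clock by -1.22 in liver, -0.34 in brain and 0.25 in testis.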

How the results depend on the processing

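No named clock gene difference that was called changed direction under the alternatives run. Without the filter on low values the F test called 0 clock genes in brain and 1 in liver, castaneus minus musculus called 2 in testis, and F1 minus midparent of the castaneus cross called 2 in testis. The call gained for castaneus minus musculus was Npas2, whose signal was below the offset in 5 of 14 testes. The share of all probe sets called without the filter was not counted. Counting all member probe sets raised the number tested to 22 in brain, 20 in liver and 19 in testis, so these counts are not comparable with counts of genes. The F test then called 3 in brain (6.15% of all probe sets) and 7 in liver (8.69%). Domesticus minus musculus called 2 in brain (5.75%). Castaneus minus musculus called 1 in brain (6.07%) and 3 in testis (13.5%). The reciprocal difference of the castaneus cross called 6 in testis (28.4%). The fit on the 8 F1 arrays alone called 6 in liver for the reciprocal difference of the domesticus cross, with Npas2 among them. Leaving out 1 array in turn gave 0 to 1 called for the F test in brain, 1 to 5 in liver and 5 to 7 in testis, 1 to 2 for domesticus minus musculus in liver and 0 to 2 in testis, 0 to 4 for F1 minus midparent of the castaneus cross in testis, 1 to 3 for its reciprocal difference in testis, and 0 to 4 for the reciprocal difference of the domesticus cross in liver. With the replicate number as a block, which does not pair the males, the F test called 3 clock genes in liver, with Dbp at an adjusted p of 0.0532 and Per3 at 0.0634, and moved no count by more than 1.5 times. Among single-gene calls, 6 were lost without the filter, 2 with the block and 1 under quantile normalization. Refits that left out 1 array also lost calls. Each call was checked in many such refits, so their total is not comparable with these counts. The share of all probe sets called in those refits, or with the block, was not counted. The offset of 100, quantile normalization and a linear midparent moved no count past that limit. The cause of each shift was not tested. With 2 arrays per genotype, differences near the within-genotype SD of liver are not detectable.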
